A study of Mus musculus with 2 samples.

Results

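Cathepsins and other lysosomal genes were described in RNA-seq data of differentiated female germline stem cells (FGSCs), as a list of 43 genes for lysosomal proteases, other hydrolases and membrane proteins, out of 51237 genes with at least 1 identifier (ID) in the count files. Each gene was given the sum of the counts of its Ensembl transcript IDs and of its protein accession, and 28 of the 43 genes had their reference accession among the IDs. The other 15 (Ctsa, Ctsc, Ctsd, Ctsk, Ctsl, Lamp1, Cd63, Grn, Gla, Glb1, Laptm4a, Ppt1, Neu1, Arsb and Idua) could be summed over Ensembl IDs only, and a low sum is no measure of them. The data comprised 2 libraries, replicates 1 and 2 of a single group: FGSCs of the CD-1 mouse strain, female, labelled premeiotic interphase, plated on granulosa cells, the follicle's somatic cells, and exposed for 3 days to retinoic acid (RA, 10 µM) and BMP4 (10 ng/mL). FGSCs are cells of the ovary that can be cultured and that the study induces towards oocytes. Each library came from 5 to 8 collected cells by Smart-seq, which turns the polyadenylated RNA into cDNA and amplifies it. The labels do not say whether the replicates came from separate cultures. With 1 group there was no comparison between conditions and no test. Each interval given is a 95% interval that covers the counting error of reads only. Amplified reads without molecular identifiers are not independent molecules, so these intervals are too narrow for the number of molecules.

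The lysosome is the acidic compartment in which the cell degrades proteins, glycans and lipids that arrive by endocytosis or autophagy. Its soluble enzymes are made as precursors, tagged with mannose 6-phosphate, carried from the Golgi by receptors and activated at the low pH that a proton pump, the v-ATPase, keeps up. Its membrane is lined with heavily glycosylated proteins such as LAMP1 and LAMP2, and transcription factors of the MiT/TFE family activate many lysosomal genes through the CACGTG-containing CLEAR element.

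The libraries differed in depth, with 1517151 counts in replicate 1 and 12442 in replicate 2, so that a single count was worth 0.659 counts per 1000000 (CPM) and 80.4 CPM, respectively. A sum of 0 allows up to 3 counts, or 1.98 CPM in replicate 1 and 241 CPM in replicate 2. Of the germ cell markers, Ddx4, Dazl, Pou5f1, Stra8, Sycp3, Dppa3, Zp3 and Prdm1 were listed at 0 in both libraries, Kit had 1 count in replicate 1, and Ifitm3 had 10476 and 5 counts in replicates 1 and 2. Sycp3 had no paired accession, so its sum is no measure of it. Of this list Ifitm3, the gene of Fragilis, was thus counted in both libraries, and the defining markers Ddx4 and Dazl were not detected at these depths. Genes used by every cell were low as well, with 64 counts for Actb and 21 for Gapdh in replicate 1, against 2556 for Hprt, so a gene listed at 0 in these files cannot be read as silent.

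In replicate 1, 18 of the 43 lysosomal genes had at least 3 counts, all of them among the 28 with a paired accession, and 20 of 43 had any count. At least 3 counts were found for 15.6% of all 51237 genes, 34.5% of the 17430 protein-coding genes and 12.3% of the protein accessions taken singly, and any count for 23.2% of all genes and 45.8% of protein-coding genes. The genes of this background were summed over their Ensembl IDs and the accessions whose place allows 1 gene only, a wider rule than that used for the members, and the protein-coding genes are those with such an accession. With these accessions added to the members' own sums, 22 of 43 had at least 3 counts. The median count over all 43 members was 0, or 3 with these accessions added, and it was 0 over the protein-coding genes. Together the members held 16557 counts, 1.09% of the library (Wilson interval 1.07 to 1.11%). Of these counts 99.5% were on protein accessions and 91 counts were on Ensembl IDs, whereas accessions held 86.1% of all counts of the library.

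A single protease, cathepsin B, carried 49.8% of the members' counts. The 13 proteases together held 75.8%, the 7 membrane proteins 13.6%, the 10 glycosidases 8.98%, the 7 genes of lipid handling 1.53% and the 5 sulfatases 11 counts. Unpaired genes entered these shares at or near 0, although accessions at the places of Lamp1 and Ctsl held 3802 and 2893 counts in replicate 1. Levels were compared between genes only per length, as counts per kilobase of exon and per 1000000 counts (FPKM), and spanned from 0.593 for Smpd1 to 1512 for Ctsz among the 18 genes with at least 3 counts. Were the accession at its place its own, Lamp1 would lie at 936.8 FPKM, below Ctsz and above Ctsb (897.8 FPKM).

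**Figure D1:**
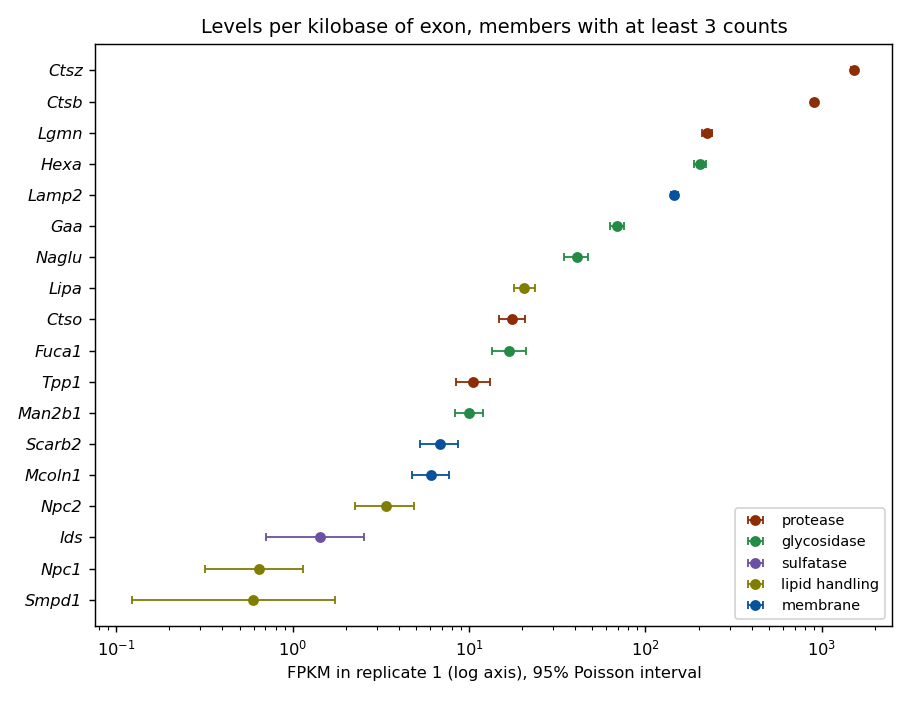
FPKM in replicate 1 (log axis) of the 18 lysosomal genes with at least 3 counts, coloured by role, with bars for the exact 95% Poisson interval of the count. The cathepsins Ctsz (1512) and Ctsb (897.8) lie above all others, and the lipid-handling genes Npc1 and Smpd1 lie lowest.

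Among the proteases, Ctsz, a cysteine carboxypeptidase at chr2:174427493-174439039 on the minus strand (GRCm38, here and for all genes), had 3306 counts in replicate 1 and 0 in replicate 2. Its level was 1512 FPKM in replicate 1 (1461 to 1565), the highest of the members. Ctsb, a cysteine protease with both endopeptidase and peptidyl-dipeptidase activity at chr14:63122462-63145923 on the plus strand, had 8242 counts in replicate 1 and 1 in replicate 2. Although it had the most counts, its longer exons placed it at 897.8 FPKM (878.5 to 917.4), below Ctsz, and the intervals did not overlap. Lgmn, legumain, the asparaginyl endopeptidase that processes cathepsins, at chr12:102394084-102439813 on the minus strand, had 787 and 2 counts and a level of 223 FPKM in replicate 1. Ctso, a cysteine cathepsin, had 137 and 0 counts and 17.6 FPKM. Tpp1, which removes tripeptides from the amino end of proteins, had 83 and 0 counts and 10.6 FPKM. The counted proteases thus covered more than 2 orders of magnitude per kilobase in replicate 1.

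Not every paired cathepsin was counted. Ctsf, a cysteine endopeptidase, Ctsh, an aminopeptidase, and Ctss, an endopeptidase known from antigen-presenting cells, were listed at 0 in both replicates. The cathepsins Ctsa, a serine carboxypeptidase that also protects other lysosomal enzymes, Ctsc, a dipeptidyl peptidase that activates serine proteases, Ctsd, the main aspartic protease of the lysosome, Ctsk, the collagen-degrading protease of osteoclasts, and Ctsl, a broad cysteine endopeptidase, had no paired accession and no count on their Ensembl IDs.

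For the unpaired genes, accessions that lie in the files' genomic order where the gene lies were examined, although place alone does not name a gene. Where only 1 gene could be placed, accessions at the place of Ctsl held 2893 and 1 counts in replicates 1 and 2, of which 2884 of those in replicate 1 were on a single accession. The accession at the place of Lamp1 held 3802 and 0 counts. Those at the place of Arsb held 13 and 0 counts, and those at the places of Ctsc and Cd63 held 1 count each in replicate 1. Were these accessions the members' own, the sum of the members would rise from 16557 to 23267 counts in replicate 1 and from 7 to 8 in replicate 2. Where several genes share the place, the accession near Laptm4a held 2048 and 0 counts, those near Glb1 47 and 4, that near Ppt1 12 and 0, that near Cd63 16 and 0, and 1 accession near both Ctsk and Ctss 12 and 0. By every ID at their place, 14 members stayed at 0 in both replicates, namely Ctsa, Ctsd, Ctsf, Ctsh, Psap, Grn, Gla, Gusb, Asah1, Cln3, Arsa, Idua, Galns and Sgsh.

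Of the glycosidases, which remove sugars from glycoproteins, glycolipids and glycosaminoglycans, 5 of the 6 paired genes had at least 3 counts in replicate 1, and no glycosidase was counted in replicate 2. Hexa, the alpha subunit of the beta-hexosaminidase that degrades GM2 ganglioside, had 616 counts and 203 FPKM, and its interval overlapped that of Lgmn. Gaa, the acid alpha-glucosidase that degrades glycogen, had 499 counts and 68.8 FPKM. The order of these genes depended on the length used. Per kilobase of bases in only 1 annotated transcript, a length chosen after seeing the data, Lgmn was at 1005, Gaa at 255 and Hexa at 233. Naglu, which acts on heparan sulfate, had 164 counts and 40.7 FPKM. These were the leading enzymes of the group. Man2b1, an alpha-mannosidase, had 122 counts, and Fuca1, an alpha-fucosidase, had 84 counts and 16.9 FPKM. Gusb, beta-glucuronidase, was listed at 0, as were the unpaired Gla, Glb1 and Idua, and the unpaired sialidase gene Neu1 had 2 counts on a retained-intron transcript.

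The sulfatases were the least counted of the enzyme groups. Ids, iduronate-2-sulfatase, had 11 counts and 1.42 FPKM in replicate 1. The paired genes Arsa, Galns and Sgsh were listed at 0 in both libraries, and Arsb was not paired.

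Of the 7 genes of lipid handling, Lipa, the acid lipase that hydrolyses cholesteryl esters, led with 212 counts and 20.6 FPKM in replicate 1. The cholesterol carriers Npc2, soluble, and Npc1, in the membrane, had 28 and 11 counts, and Smpd1, acid sphingomyelinase, had 3. Each of these 4 genes was at 0 in replicate 2. Asah1, acid ceramidase, and Psap, the precursor of the saposins that activate sphingolipid hydrolases, were listed at 0 in both libraries. The unpaired palmitoyl-protein thioesterase gene Ppt1 and the progranulin gene Grn, the precursor of growth factor-like granulins, also had no count.

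Among the membrane proteins, Lamp2, at chrX:38401357-38456454 on the minus strand, whose product serves in autophagy, had 2113 counts in replicate 1 and 2 in replicate 2. Its level in replicate 1 was 146 FPKM over all annotated exons, with the next lower place after Hexa, and 386 FPKM over its longest transcript, which would place it above Lgmn and Hexa. Scarb2, the receptor that carries glucocerebrosidase to the lysosome, had 65 and 1 counts. Cln3, a membrane protein lost in juvenile Batten disease, was listed at 0, and the unpaired tetraspanin gene Cd63 had 2 counts in replicate 1.

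Mcoln1, the gene of the calcium channel TRPML1 of the lysosomal membrane, had no count on its protein accession, unlike the other 17 members with at least 3 counts. All of its 70 counts in replicate 1 were on the retained-intron transcript ENSMUST00000161705.2, at chr8:3513023-3515232 at the end of the gene. The 1 count of replicate 2 was on another retained-intron transcript. ENSMUST00000161705.2 ends where the gene ends, and how reads that overlap several transcripts were counted is not given. Whether the 70 counts measure the coding mRNA therefore cannot be told. The few counts of the unpaired Neu1 and Cd63 were likewise on retained-intron transcripts.

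Replicate 2 held 7 counts of the members, 0.0563% of the library (Wilson interval 0.0273 to 0.116%). At the share seen in replicate 1, 135.8 counts would have been found. The summed level was thus 19.4-fold lower in replicate 2 (9.41 to 48.3), or 11-fold lower (5.34 to 27.4) when both libraries were scaled to the counts on protein accessions, which made up 86.1% of replicate 1 and 48.8% of replicate 2. The part of that difference in accession share in the result was not tested beyond this rescaling. No member reached 3 counts in replicate 2, where 2.06% of all genes and 3.95% of protein-coding genes did. The members with a count there were Lgmn and Lamp2 with 2 each, and Ctsb, Scarb2 and Mcoln1 with 1 each, 5 of 43, where 7.22% of all genes and 13.2% of protein-coding genes had a count. All 5 were also counted in replicate 1, and 3.68% of all genes and 8.8% of protein-coding genes were counted in both libraries.

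**Figure D2:**
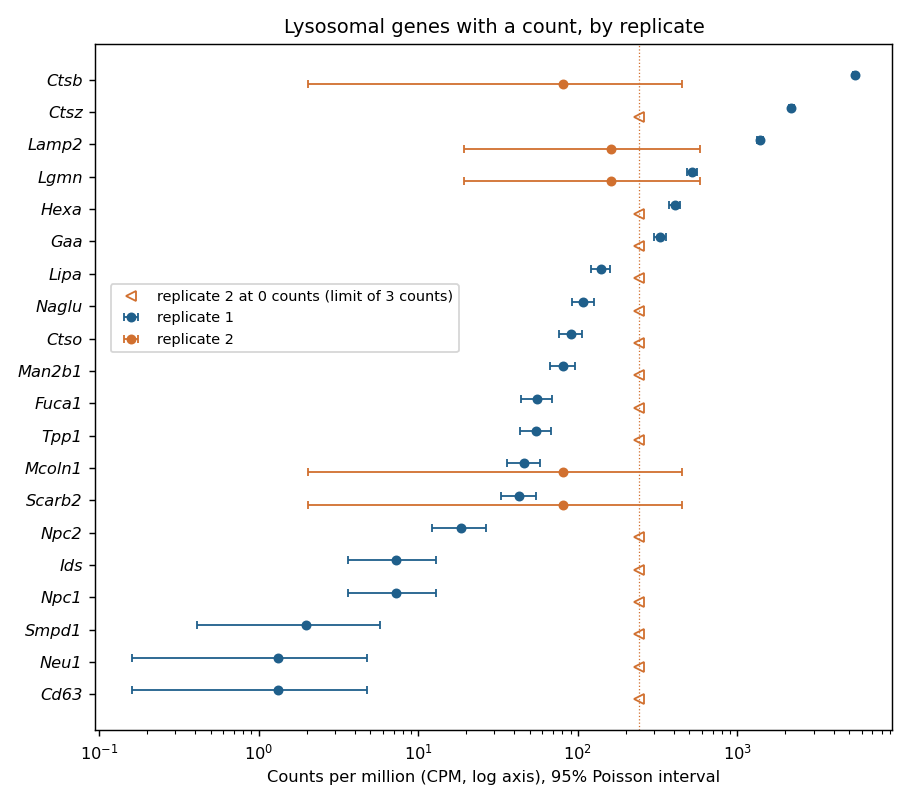
CPM (log axis) of the 20 lysosomal genes with a count, in replicate 1 (blue) and replicate 2 (orange), with exact 95% Poisson intervals. Open triangles on the dotted line at 241 CPM mark genes at 0 counts in replicate 2, drawn at the floor of 3 counts, whereas the exact 95% Poisson interval of 0 counts reaches 296 CPM. Only Ctsb, Ctsz, Lamp2, Lgmn, Hexa and Gaa lie above the line in replicate 1.

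At the depth of replicate 2, only the 6 members above 241 CPM in replicate 1 could be expected to show a difference downwards. The interval of the ratio between the libraries left out 1 for 5 of these 6, all lower in replicate 2, and no member was higher. Of all 642 genes above that limit, 61.5% were lower in replicate 2, so a lower value was common among genes of this level. Both sets were kept by a high value in replicate 1, which by itself favours lower values in replicate 2. A count in replicate 2 was found for 37.5% of the 642 and for 3 of the 6 members. Of all 13704 genes with a count, 2.88% were lower and 19.2% higher. At these depths 1 count in replicate 2 and none in replicate 1 sufficed for a call of higher. Among the 6121 genes with at least 10 counts over both replicates, 6.45% were lower and 6.53% higher. Ctsb fell from 5433 to 80.4 CPM, 67.6-fold (12.1 to 2670). Lamp2 fell from 1393 to 161 CPM, 8.66-fold (2.40 to 71.6). Ctsz, at 0 in replicate 2, was at least 9.04-fold lower, Hexa at least 1.68-fold and Gaa at least 1.36-fold, each against the floor of 3 counts in replicate 2. The intervals used for the calls are wider, and their upper limits for the ratio of replicate 2 to replicate 1 were 0.136 for Ctsz, 0.732 for Hexa and 0.905 for Gaa. For Lgmn the ratio, 3.23-fold lower, had an interval of 0.890 to 26.7 and included 1. Scaled to the counts on protein accessions, the calls of Hexa and Gaa were lost, and Ctsb, Ctsz and Lamp2 were the 3 that kept theirs. These ratios compare 2 libraries of the same condition that also differed in depth and in the share of counts on protein accessions. In such bulk samples fewer cells of a type cannot be told apart from less RNA per cell. Neither can be told apart from these differences between the libraries. For the remaining 14 members with a count in replicate 1, from Lipa at 140 CPM down to Neu1 and Cd63 at 1.32 CPM, a fall was not detectable at this depth.

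Other genes of the pathway were described beside the members. Of the v-ATPase, 9 of 14 genes had at least 3 counts in replicate 1, led by the stalk subunit gene Atp6v1g1 with 4523 counts and the accessory subunit gene Atp6ap2 with 3155. Summed, they had 10450 counts in replicate 1 and 5 in replicate 2, 17.1-fold lower (7.34 to 52.8), a range that overlapped that of the members. Of the 6 genes for sorting to the lysosome, 3 had at least 3 counts, with 1022 and 5 for Igf2r, the mannose 6-phosphate receptor that binds the enzymes' tag, and 93 and 0 for Sort1. The sum of this list was 1.95-fold lower in replicate 2 with an interval (0.834 to 6.02) that included 1. The other mannose 6-phosphate receptor gene, M6pr, was not paired, and with accessions at the place of 1 gene only it had 335 and 0 counts and the list was 2.38-fold lower (1.02 to 7.34). The cathepsin inhibitors Cstb and Cst3 had 3184 and 549 counts in replicate 1, and 0 and 1 in replicate 2. Of the Ragulator complex, which anchors mTORC1 signalling at the lysosome, Lamtor1 had 819 counts and Lamtor3 16 in replicate 1, and the 5 genes had none in replicate 2. Of the MiT/TFE factors, Mitf had 17 counts in replicate 1, and Tfeb and Tfe3 were listed at 0.

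**Figure D3:**
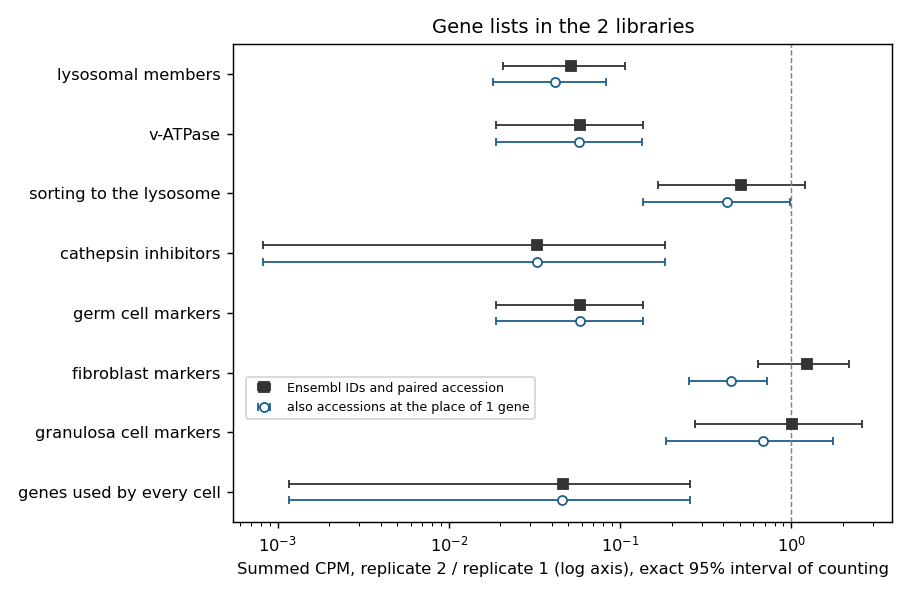
Summed CPM of each gene list in replicate 2 divided by that in replicate 1 (log axis), with the exact 95% interval of counting, for the lists with a count in replicate 2. Black squares use Ensembl IDs and the paired accession, and open circles add accessions at the place of 1 gene only. By either set of IDs the lysosomal members (0.0516 and 0.0419), the v-ATPase, the cathepsin inhibitors, the germ cell list (almost all Ifitm3) and the genes used by every cell (almost all Hprt) lie below the dashed line at 1, whereas the fibroblast and sorting lists include 1 by the first set and lie below it by the second, and the granulosa cell list includes 1 by both.

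Markers of the other cells that the collection could hold were set beside the difference between the libraries. Fibroblast markers, for the STO feeder cells on which FGSCs are grown, had at least 3 counts in replicate 1 for 4 of 9 genes and summed to 1180 and 12 counts in replicates 1 and 2, a ratio of replicate 2 to replicate 1 of 1.24 (0.639 to 2.17). The direction turned with accessions at the place of 1 gene only, chosen after seeing the data, to 4379 and 16 counts and a ratio of 0.446 (0.254 to 0.724). Within that list the paired Pdgfra had 726 and 2 counts, Col1a1 401 and 0, and Fn1 1 and 5. The paired Thy1 had 1 and 0 counts, and the paired Lum was at 0 in both. Col1a2 and Dcn were not paired, so that their 0 and 4 and their 43 and 0 counts are no measure of them, and with those accessions they had 910 and 6 and 2281 and 0. Col3a1 and Vim, also unpaired, had 7 and 1 and 1 and 0 counts, or 58 and 3 and 1 and 0 with those accessions. Granulosa cell markers summed to 482 and 4 counts over 10 genes, of which 3 had at least 3 counts in replicate 1, with a ratio of 1.01 (0.275 to 2.61), or 0.686 (0.186 to 1.76) with those accessions, led by Kitl with 453 and 1 and Fst with 26 and 0. The paired Fshr and Inha, both at 0 in replicate 1, had 2 and 1 counts in replicate 2, and the paired Amhr2 was at 0 in both. The defining granulosa cell marker Foxl2 was at 0 in both, although it had no paired accession. The genes used by every cell summed to 2642 and 1 counts, of which Hprt held 2556 and 1, and the others lay below the floor of replicate 2, so that their sum describes Hprt alone. Macrophage markers, relevant since macrophages are rich in cathepsins, had at least 3 counts in replicate 1 for 1 of 11 genes, Lyz2 with 65 counts, and summed to 68 and 0, with Cd68, Ptprc, Fcer1g and C1qb at 0 in both. With accessions at the place of 1 gene only, the unpaired Cd14 had 142 and 0 counts, which made 2 of 11 genes and 210 and 0 counts. The part of other cells in the levels of the lysosomal genes was not tested.

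The counted and uncounted members differed in how their IDs were arranged, a comparison chosen after the values were seen. All 12 paired members with a single accession at their place had at least 3 counts in replicate 1, from 3 for Smpd1 to 8242 for Ctsb. Of the 16 with 2 or more accessions, 6 had at least 3 counts and 10 were at 0. Among the 6, Mcoln1 had no count on its accession, so that 5 had at least 3 counts there. No such difference was seen over the protein-coding genes whose accessions all had a place allowing 1 gene only. At least 3 counts were found for 35.3% of 5314 such genes with 1 accession and for 37.0% of 8233 with more. These genes were summed over all their accessions, whereas the members were summed over their reference accession and were not restricted in this way. The members with at least 3 counts had a median of 1 annotated transcript without its own Ensembl ID (1 to 6), and those at 0 had 3 (2 to 10). Exon bases were also taken that lay in only 1 annotated transcript, itself without its own Ensembl ID. Their median share was 39.7% in the counted members (0 to 99.3%) and 7.09% in those at 0 (0.442 to 18.6%). The part of ID arrangement in the zeros was not tested.

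**Figure D4:**
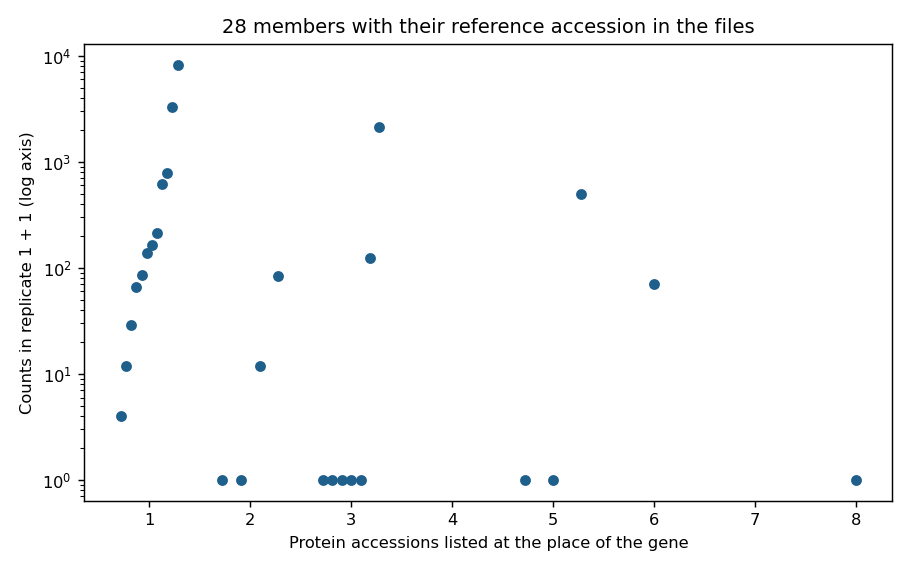
Counts in replicate 1 plus 1 (log axis) of the 28 paired lysosomal genes against the number of protein accessions at the place of the gene. Each point is a gene, and points of the same whole number are spread sideways in order of count for legibility. All genes with 1 accession lie above the bottom line of 0 counts, and the 10 genes on it have 2 or more.

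Promoters of the members were searched for the CLEAR element, from 250 bases before to 50 after the start in RefSeq on GRCm38.p6, both strands. The table had 42 promoters of 38 members and none for Ctsb, Ctsh, Npc1, Asah1 and Galns. The core CACGTG was in 14 of the 42 promoters (33.3%), against 7.15% of all 32851 promoters and 7.84% of protein-coding ones. The element was chosen because it is already known from lysosomal genes, so the higher share is no independent result. The longer TCACGTGA, which contains CACGTG and was added after the first search, was in those of Cln3, Ctsa, Ctsd, Gla and Mcoln1 (11.9% against 0.974% of all), and the full palindromic CLEAR element, which contains both, in that of Cln3 (2.38% against 0.326%). To show how the core lies in counted and uncounted members, the 250 bases before the start are given for the counted Gaa, Naglu, Lgmn and Mcoln1, for Lamp1, which has the most cores, and for Cln3, which has the longest match but no count. They run 5′ to 3′ on the strand of the gene, with each CACGTG in capitals.
Gaa, chr11:119267713-119267962, plus strand: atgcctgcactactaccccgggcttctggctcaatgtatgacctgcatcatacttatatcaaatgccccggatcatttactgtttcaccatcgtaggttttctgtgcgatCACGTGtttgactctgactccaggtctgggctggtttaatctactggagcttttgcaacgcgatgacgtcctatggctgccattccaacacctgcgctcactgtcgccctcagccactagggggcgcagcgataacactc
Naglu, chr11:101069844-101070093, plus strand: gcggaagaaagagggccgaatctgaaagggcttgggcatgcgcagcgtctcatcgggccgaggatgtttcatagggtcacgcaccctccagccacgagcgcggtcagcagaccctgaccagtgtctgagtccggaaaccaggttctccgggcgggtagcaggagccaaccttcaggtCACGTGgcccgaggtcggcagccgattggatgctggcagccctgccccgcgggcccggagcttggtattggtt
Lgmn, chr12:102439093-102439342, minus strand: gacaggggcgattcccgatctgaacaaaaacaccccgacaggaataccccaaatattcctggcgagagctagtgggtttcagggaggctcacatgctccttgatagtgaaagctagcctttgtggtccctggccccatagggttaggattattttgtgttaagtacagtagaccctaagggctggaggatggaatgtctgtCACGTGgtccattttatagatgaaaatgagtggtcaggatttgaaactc
Mcoln1, chr8:3500269-3500518, plus strand: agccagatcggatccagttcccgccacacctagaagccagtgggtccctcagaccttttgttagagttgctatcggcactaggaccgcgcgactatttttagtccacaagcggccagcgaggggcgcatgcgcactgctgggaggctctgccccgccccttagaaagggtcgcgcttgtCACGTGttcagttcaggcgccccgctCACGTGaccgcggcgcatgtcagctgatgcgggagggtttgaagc
Lamp1, chr8:13158911-13159160, plus strand: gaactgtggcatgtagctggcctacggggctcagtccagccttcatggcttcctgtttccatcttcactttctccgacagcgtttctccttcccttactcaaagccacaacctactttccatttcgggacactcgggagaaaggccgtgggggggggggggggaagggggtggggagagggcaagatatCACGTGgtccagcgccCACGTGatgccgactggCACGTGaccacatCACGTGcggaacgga
Cln3, chr7:126583237-126583486, minus strand: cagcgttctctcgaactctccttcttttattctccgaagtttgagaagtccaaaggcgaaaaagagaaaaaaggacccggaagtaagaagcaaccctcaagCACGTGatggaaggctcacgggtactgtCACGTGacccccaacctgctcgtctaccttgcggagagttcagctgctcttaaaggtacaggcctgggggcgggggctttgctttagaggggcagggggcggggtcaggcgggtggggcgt

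The core lay 140 bases before the start in Gaa, 73 in Naglu, 49 in Lgmn, 71 and 45 in Mcoln1 and 149 and 121 in Cln3, whereas Lamp1 held 4 within 61 bases of the start. Among paired members, 4 of the 8 with a core in a promoter had at least 3 counts in replicate 1 and 4 were at 0. Of the 15 with a promoter and no core, 12 had at least 3 counts and 3 were at 0. Counted and uncounted members thus occurred both with and without the core. Mcoln1 was among the counted members with a core, although its protein accession held no count. Since a gene listed at 0 cannot be read as silent, this split does not bear on promoter activity. A match describes letters in a window and is not a binding site.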

How the data were processed

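The authors deposited, per library, whole-number counts for 129311 IDs (76066 Ensembl transcript IDs and 53245 protein accessions), neither normalized nor pooled. The submitters' processing notes name FastQC, Trim Galore, HISAT2 2.2.1, featureCounts and mm10, whereas the paper's methods describe TopHat and Cufflinks with FPKM. The annotation and the strand setting are not given in the sources used here. A counter working per transcript may leave out reads that overlap several transcripts, and its setting is not given either.

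Ensembl IDs were joined to GENCODE M21, which held 74985 of them. The files do not pair accessions with genes. Reference accessions of 119 genes were written by hand from general knowledge, 84 were in the files, and all 84 lay at the place of their gene in the files' genomic order (68 with that gene as the only candidate). Other accessions enter alternatives only, and, where their place allows 1 gene, the sums of all other genes. FPKM was computed over the union of exons. Proportions have Wilson intervals, counts exact Poisson intervals and ratios exact binomial intervals, at 95%. The floor was 3 counts. Totals were 1517151 and 12442 counts.

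The members and lists were chosen with earlier results of these data known. Genes given in full were the 10 highest by FPKM, those counted in replicate 2, and the cathepsins. Of each other list the 2 genes with most counts and any with at least 3 in replicate 2 were given, and marker genes beyond these were named after their values were seen. Alternatives were the IDs summed, the threshold, the total, the exon length and each replicate left out. FGSC and GV oocyte data were not analysed here. Calculations used scipy 1.17.1, pandas 2.3.3 and numpy 2.4.6 under Python 3.11.15, and plots matplotlib 3.10.9.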

Additional observations from a re-analysis of the deposited data

How the results depend on the processing

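The pairing of accessions moved the values most. With Ensembl IDs alone, 3 members had at least 3 counts in replicate 1 (18 otherwise), 1 was counted in both replicates (5), 0 were lower in replicate 2 (5), and the members' share was 0.00600% in replicate 1 and 0.00804% in replicate 2. With accessions at the place of 1 gene added, the share in replicate 1 was 1.53%. With those allowing several genes, chosen after seeing the data, it was 1.68%, 1 member had at least 3 counts in replicate 2, and 8 were lower and 1, the place of Glb1, higher there. At a threshold of 1 count, 5 members passed in replicate 2. The share of 1.09% became 1.24% without mitochondrial IDs and 1.26% over IDs assigned to a gene. Added after seeing the data, it was 1.27% of the accession total and 0.548% without Ctsb, and 3 members were lower in replicate 2 when scaled by the accession total. The mean share of both replicates, 0.574%, was 0.0563% without replicate 1 and 1.09% without replicate 2. With accessions at the place of 1 gene only, an alternative added after seeing the data for the lists, the ratio of replicate 2 to replicate 1 turned from 1.24 to 0.446 for fibroblast and from 1.01 to 0.686 for granulosa cell markers, and that of the sorting genes went from 0.512 to 0.420. The background of protein-coding genes in place of all genes is given with the counts. No paired analysis was possible because the replicates form a single group. Every comparison is limited by the 12442 counts of replicate 2, and the zeros of unpaired genes measure nothing.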
